A study of Mus musculus with 104 samples.

Results

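Piriform cortex was compared with 3 areas of isocortex (retrosplenial, motor and cingulate cortex) on Affymetrix mouse expression arrays, with 2 arrays for each area. The comparison was set by the dissection labels, and it used 8 arrays of a survey that covered 52 regions of the nervous system and neighbouring glands with 2 arrays each. The piriform group held the 2 arrays titled Pir, and the isocortex group held the 6 arrays titled RS, Cx_motor and Cx_cingulate, with each area given equal weight. All 8 arrays carried RNA of male Balb/c mice aged 7 to 8 weeks. The labels give no genotype other than the strain and no agent. They place the mice in light and dark cycles before sampling and name both that cycle and constant darkness as sampling conditions without assigning either to an array. Each area was punched from frozen brain slices with a needle, and its RNA was combined across 6 time points spaced 4 hours apart before it went on an array. A punch holds every cell type of its area, so the values are averages over cells and over the day. Nothing in the labels says whether the 2 arrays of an area came from separate animals, so the spread behind the p-values may be technical. It was pooled from the 2 arrays of each of the 52 regions, and differences among the 3 isocortex areas do not enter it.

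Piriform cortex is the main cortical target of the olfactory bulb. It is a three-layered paleocortex built from the ventral and lateral parts of the developing pallium, with a dense sheet of glutamatergic neurons (semilunar and superficial pyramidal cells) under the olfactory tract fibres. Isocortex, built from the dorsal pallium, has more layers and receives its main sensory input through the thalamus. In adult rodents the superficial piriform layer also keeps neurons that express proteins of immature neurons, such as doublecortin.

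The label was compared with markers of cortical excitatory neurons, which did not all go one way. Over 17 measured genes of pallial excitatory neurons the piriform arrays averaged 10.19 to 10.34, below the isocortex arrays at 10.44 to 10.68, and piriform cortex ranked number 6 of the 52 regions. The deposited RMA values are on the log2 scale, so a difference of 1 is 2-fold, and isocortex is given by the lowest, highest and median value of its 6 arrays. Slc17a7 and Tbr1, chosen after their values were seen, were among the higher members. Slc17a7, which loads glutamate into the vesicles of cortical neurons, was at 11.43 and 11.61 in piriform cortex, against 10.23 to 11.15 in isocortex (median 10.74). Tbr1, a transcription factor of pallial glutamatergic neurons, was at 9.02 and 9.31 in piriform cortex, against 7.68 to 9.15 in isocortex (median 8.53), and its piriform mean was the highest of the 52 regions. Emx1, a dorsal pallial homeobox gene, was at 8.48 and 8.54 in piriform cortex, against 8.37 to 8.79 in isocortex (median 8.60). The groups did not overlap for Slc17a7, with a difference of 0.79 ± 0.22 (piriform minus isocortex on the log2 scale, ± SE; adjusted p = 0.00409 by limma). Neighbours of the piriform punch were looked for by their markers. The 14 measured genes of striatal medium spiny neurons averaged 8.86 to 9.22 on the piriform arrays, against 8.34 to 8.49 on the isocortex arrays. Their averages were 11.78 in the olfactory tubercle and 11.96 in the lateral caudate putamen. The 10 measured genes of the claustrum and endopiriform nucleus averaged 9.14 to 9.22 on the piriform arrays, against 8.58 to 9.05 in isocortex. Their median difference was 0.04. Nr4a2, which marks the claustrum, was at 9.26 and 9.64 in piriform cortex, against 8.92 to 10.27 in isocortex (median 9.21).

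The arrays also differed in technical measures along the same line as the groups. The 18 probe sets of the added hybridisation controls averaged 10.36 to 10.38 on the piriform arrays, against 10.91 to 11.33 on the isocortex arrays. Piriform cortex belonged with 20 other regions of low control values, and all 3 isocortex areas were among the 30 of high values. The region labelled POA was left out of this split because its control rows were out of register. It stayed in the fit and in the ranks over 52 regions. The 3' minus 5' difference of the beta-actin control, a sign of RNA integrity and labelling, was 1.36 to 1.41 in piriform cortex, against 1.05 to 1.12 in retrosplenial cortex and 0.53 to 0.86 in motor and cingulate cortex. The control set and the group cannot be told apart for any gene. As a measure beside the results, each gene has a control gap here. It is the gene's mean over the other low-control regions minus its mean over the high-control regions outside isocortex. Over all genes the median control gap was 0.01, against -0.009 over genes called higher and -0.10 over genes called lower. For 20 genes called higher and 20 called lower the gap was at least 0.5 in the direction of the call. The share of all genes with a gap of that size was not counted.

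Of 18193 genes tested, 163 (0.896%) were called higher and 127 (0.698%) lower in piriform cortex, at a limma adjusted p under 0.05 and at least 2-fold. Together the called genes made up 1.59% of those tested. On adjusted p alone, 2316 genes (12.7%) were higher and 2545 (14.0%) lower, so most differences were under 2-fold. Both piriform arrays lay above all 6 isocortex arrays for 2924 genes (16.1%) and below them for 2959 (16.3%). Among the called genes this held for 161 of the 163 higher and 126 of the 127 lower. The difference reached 2-fold against each of the 3 isocortex areas taken alone for 88 of the genes called higher and 69 of those called lower. The piriform arrays correlated at r = 0.997 with each other across genes and at 0.977 to 0.984 with isocortex arrays, while arrays of different isocortex areas correlated at 0.984 to 0.993. These are correlations across genes, which are not independent replicates. The number of arrays, 2 per area, limits the precision, and the median SE of a difference was 0.10. The median SD between the 2 arrays was 0.06 in piriform cortex and 0.09 in each isocortex area, against 0.07 over all regions.

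**Figure D1:**
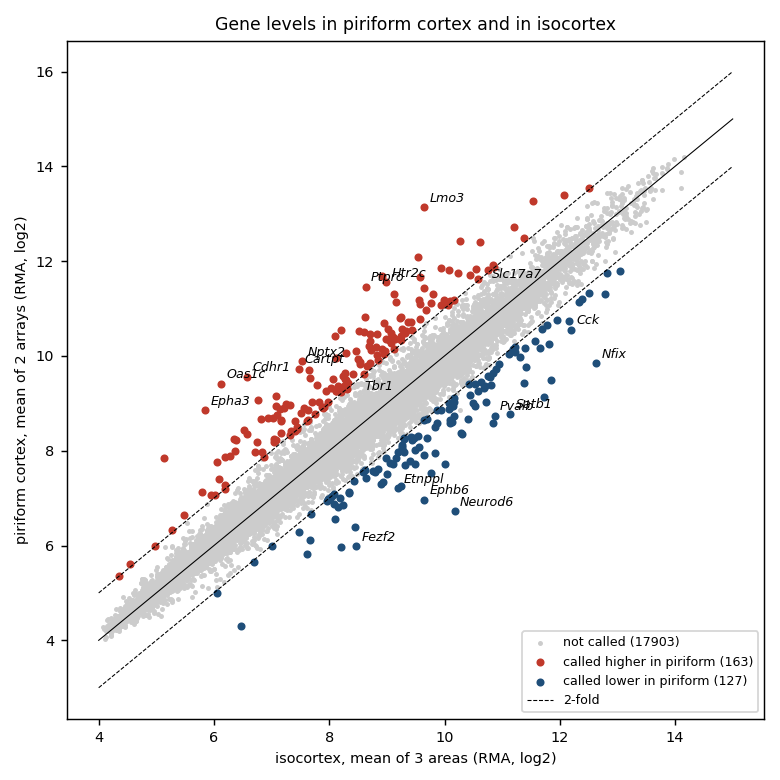
Each point is a gene, with its mean over the 2 piriform arrays on the vertical axis and the mean of the 3 isocortex areas on the horizontal axis (RMA values, log2). The solid line marks equal levels and the dashed lines 2-fold differences. The 163 genes called higher (red) and the 127 called lower (blue) lie outside the dashed lines at low and high levels alike, with Lmo3 farthest above and Neurod6 farthest below.

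Lmo3 and Neurod6, both regulators of transcription in neurons, had the largest differences in the 2 directions. Lmo3, a LIM-only cofactor that joins transcription factor complexes, was at 13.15 and 13.14 in piriform cortex, against 9.24 to 10.38 in isocortex (median 9.46). Neurod6, a basic helix-loop-helix factor of pallial excitatory neurons, was at 6.24 and 7.21 in piriform cortex, against 9.83 to 10.38 in isocortex (median 10.21). Neither gene's groups overlapped, and the piriform level of Lmo3 was the highest of all 52 regions. The difference was 3.49 ± 0.14 (11.25-fold, limma adjusted p = 9.91e-29) for Lmo3. It was -3.45 ± 0.30 for Neurod6 (adjusted p = 2.1e-14), with isocortex 10.96-fold above piriform cortex. The 2 piriform arrays were further apart for Neurod6 than for Lmo3. In bulk tissue, fewer cells of a type and less RNA per cell cannot be told apart.

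The sequences just before the start of 4 genes are shown, for the gene with the largest difference in each direction and for Cartpt and Cck, neuropeptide genes that differed in opposite directions. Each run gives the 250 bases before the annotated start on the gene's own strand, from RefSeq annotation on GRCm38.p6. All 4 genes lie on the minus strand. The windows are chr6:138581969-138582218 for Lmo3, chr6:55681264-55681513 for Neurod6, chr13:99900684-99900933 for Cartpt and chr9:121495695-121495944 for Cck. Capitals mark CAGATG or its reverse complement CATCTG, an E-box form that NeuroD-family factors are known to bind.
Lmo3: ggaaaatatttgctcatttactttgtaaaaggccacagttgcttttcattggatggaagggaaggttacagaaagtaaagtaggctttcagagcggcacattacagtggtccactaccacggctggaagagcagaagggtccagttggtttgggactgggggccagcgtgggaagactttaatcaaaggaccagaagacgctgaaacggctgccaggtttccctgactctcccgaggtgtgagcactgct
Neurod6: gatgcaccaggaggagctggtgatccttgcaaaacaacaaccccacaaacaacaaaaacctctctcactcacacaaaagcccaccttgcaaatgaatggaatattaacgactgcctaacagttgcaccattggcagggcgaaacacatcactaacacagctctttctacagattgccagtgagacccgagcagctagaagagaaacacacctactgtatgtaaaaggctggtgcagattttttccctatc
Cartpt: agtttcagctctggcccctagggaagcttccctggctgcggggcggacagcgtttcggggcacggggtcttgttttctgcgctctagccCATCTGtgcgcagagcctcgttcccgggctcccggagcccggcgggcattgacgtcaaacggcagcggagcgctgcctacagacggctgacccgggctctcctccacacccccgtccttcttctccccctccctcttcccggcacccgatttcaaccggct
Cck: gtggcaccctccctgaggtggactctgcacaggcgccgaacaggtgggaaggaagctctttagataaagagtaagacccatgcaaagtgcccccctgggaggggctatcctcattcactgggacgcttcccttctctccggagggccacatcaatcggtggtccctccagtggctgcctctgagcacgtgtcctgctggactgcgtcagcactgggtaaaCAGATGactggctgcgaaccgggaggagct
The E-box started at position -161 from the start in Cartpt and at -30 in Cck, and these letters are not in the Lmo3 and Neurod6 windows. The search covered both strands of 1 window per gene and left out the windows of 1 chromosome. The letters were in 14.7% of 129 windows of genes called higher and 11.2% of 98 windows of genes called lower. They were in 11.6% of the 14367 windows of genes tested and 14.5% of all 27025 windows searched. The motif was therefore about as frequent before called genes as before genes in general, and a match describes the letters, not binding.

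The 15 largest differences among genes called higher and bright enough to name included receptors, adhesion molecules and secreted proteins. Genes entered these 15, in either direction, only if both piriform arrays lay on one side of all 6 isocortex arrays. Their separation was therefore set by the choice. Epha3, a receptor of ephrin-A ligands in axon guidance, was at 8.75 and 8.97 in piriform cortex, against 5.25 to 6.68 in isocortex (median 5.77). Ptpro, a receptor tyrosine phosphatase, was at 11.34 and 11.59 in piriform cortex, against 8.01 to 9.25 in isocortex (median 8.59). Rprm, the cell-cycle inhibitor Reprimo and a marker of deep isocortical layers, was at 11.64 and 11.73 in piriform cortex, against 8.28 to 9.83 in isocortex (median 8.75). Both piriform arrays stood above every isocortex array for each of the 3. Qrfpr, the receptor of the hypothalamic peptide QRFP, was at 7.79 and 7.89 in piriform cortex, against 4.93 to 5.34 in isocortex (median 5.12). Tafa2, a secreted chemokine-like protein of neurons, was at 12.02 and 12.15 in piriform cortex, against 9.19 to 10.21 in isocortex (median 9.46). Nptx2, a pentraxin that gathers AMPA receptors at excitatory synapses, was at 9.75 and 10.02 in piriform cortex, against 7.09 to 8.22 in isocortex (median 7.39). Of these 3, Tafa2 had its highest level of all 52 regions in piriform cortex, and Qrfpr and Nptx2 had their second highest there. Tox3, a high-mobility-group transcription regulator, was at 10.56 and 10.52 in piriform cortex, against 7.76 to 9.04 in isocortex (median 8.00). Fras1, an extracellular matrix protein, was at 10.26 and 10.57 in piriform cortex, against 7.64 to 8.35 in isocortex (median 8.24). Both also had their highest level of the survey in piriform cortex. The adjusted p of these 8 genes was at most 3.81e-20, and their differences ran from 2.31 for Fras1 to 3.01 for Epha3. Epha3, Rprm, Nptx2 and Tox3 lost their calls when region means were the samples. Ptpro, Qrfpr, Tafa2 and Fras1 kept theirs.

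**Figure D2:**
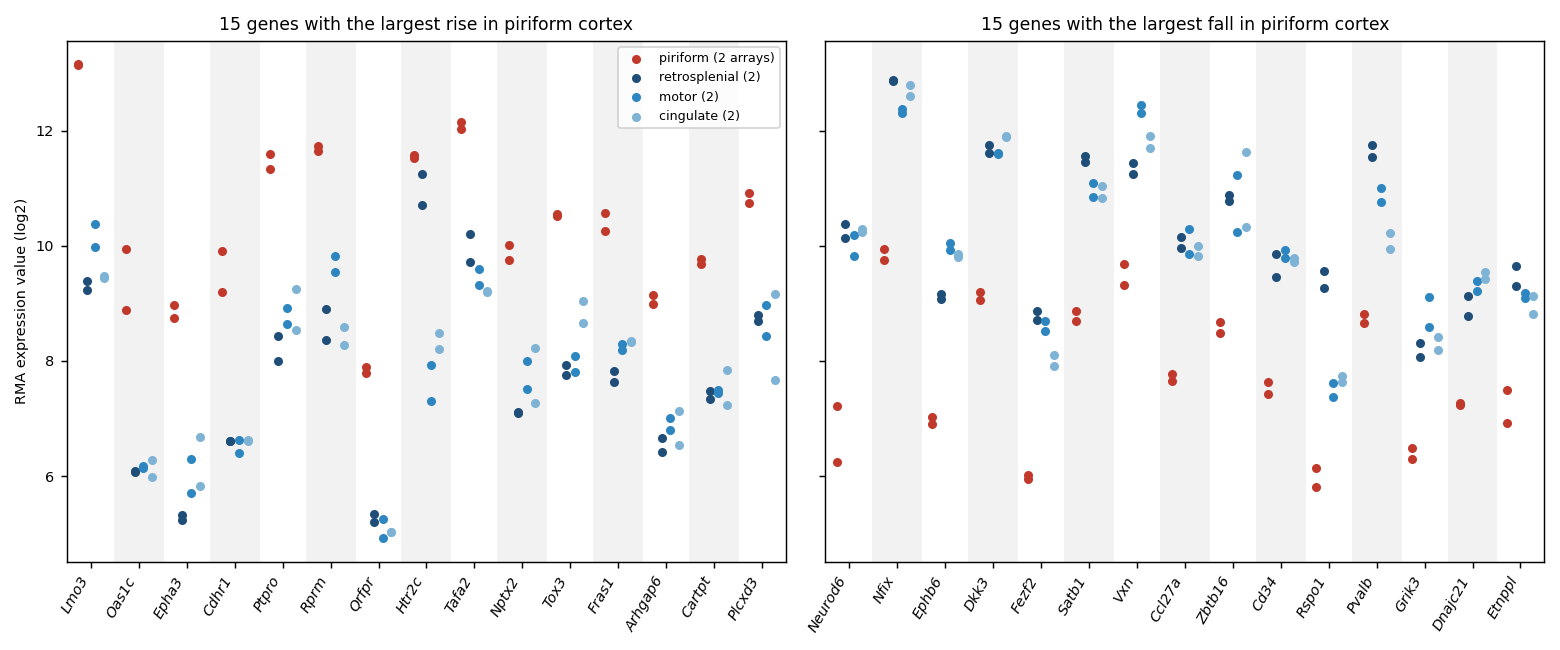
RMA values (log2, vertical axis) of each array for the 15 named genes with the largest differences in each direction, with the 2 piriform arrays (red) left of the retrosplenial, motor and cingulate arrays (blues). The red points lie apart from all blue points in every column because only genes without overlap were picked. The gap is narrowest for Htr2c, whose retrosplenial arrays reach 11.25.

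Some of the largest differences came with a control gap or with probe sets that disagreed. Oas1c, a member of the oligoadenylate synthetase family, was at 8.88 and 9.94 in piriform cortex, against 5.98 to 6.28 in isocortex (median 6.12), and Cdhr1, a cadherin-related protein best known from photoreceptors, was at 9.21 and 9.91 in piriform cortex, against 6.40 to 6.63 in isocortex (median 6.60). The control gaps were 1.07 for Oas1c, 1.16 for Cdhr1, 0.90 for Epha3 and 0.65 for Nptx2, all in the direction of the call, and their part in these differences was not tested. The 2 piriform arrays of Oas1c differed by more than the whole spread of its isocortex arrays. Over the 4 probe sets of Epha3 the difference ran from 0.59 to 3.01, and over the 2 of Nptx2 from 0.74 to 2.35. Of the remaining genes of this group, Arhgap6 had a difference of 2.30 ± 0.22, and Plcxd3, a phospholipase-like protein, one of 2.21 ± 0.21.

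Genes called lower included several regulators of cortical neuron identity. Nfix, a nuclear factor I family member, was at 9.94 and 9.75 in piriform cortex, against 12.30 to 12.88 in isocortex (median 12.69), and its piriform mean was the lowest of all 52 regions. Fezf2, a zinc-finger factor that specifies subcerebral projection neurons of layer 5, was at 5.95 and 6.02 in piriform cortex, against 7.91 to 8.87 in isocortex (median 8.60). Satb1, a chromatin organiser of cortical neurons and interneurons, was at 8.69 and 8.87 in piriform cortex, against 10.83 to 11.55 in isocortex (median 11.07). None of the 3 overlapped between groups, which the choice of the 15 genes required. The difference was -2.79 ± 0.17 for Nfix, -2.48 ± 0.15 for Fezf2 and -2.36 ± 0.19 for Satb1, with an adjusted p of at most 6.36e-16. When region means were the samples, Fezf2 lost its call, and Nfix and Satb1 kept theirs. The 5 probe sets of Nfix all gave differences below 0, from -2.91 to -0.37, while those of Satb1 ran from -2.36 to 0.13. Fezf2 had levels in the lateral caudate putamen and the olfactory tubercle, of 5.98 and 5.89, that were close to its piriform mean of 5.99.

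Secreted and surface proteins were also among the 15 largest differences of genes called lower. Ephb6, an Eph receptor without kinase activity, was at 6.90 and 7.03 in piriform cortex, against 9.08 to 10.04 in isocortex (median 9.83). Dkk3, a secreted member of the Dickkopf family, was at 9.07 and 9.20 in piriform cortex, against 11.60 to 11.90 in isocortex (median 11.68). Rspo1, a secreted activator of Wnt signalling, was at 5.81 and 6.14 in piriform cortex, against 7.38 to 9.57 in isocortex (median 7.69). For Rspo1 the retrosplenial arrays, at 9.26 and 9.57, stood above the other isocortex arrays, and piriform cortex was below all of them. The difference was -2.68 ± 0.14 for Ephb6, -2.59 ± 0.12 for Dkk3 and -2.22 ± 0.20 for Rspo1. Vxn, a regulator of neurogenesis, differed by -2.35 ± 0.13. When region means were the samples, Ephb6, Rspo1 and Vxn lost their calls and Dkk3 kept its call. The chemokine Ccl27a differed by -2.30 ± 0.13, the zinc-finger factor Zbtb16 by -2.26 ± 0.20 and the sialomucin Cd34 by -2.23 ± 0.13. Probe sets disagreed for the kainate receptor Grik3 (-2.05 and 0.05), the co-chaperone Dnajc21 (-1.99 to 0.38 over 5) and the ethanolamine-phosphate lyase Etnppl (-1.99 and 0.10). Averaged over all their probe sets, the differences of Dnajc21 and Etnppl were -0.81 and -0.94, under 2-fold.

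Of 17 measured genes of pallial excitatory neurons, 0 were called higher and 3 lower, with a median difference of -0.07, against 0.01 over all genes. The called share was 17.6%, against 1.59% over all genes. This and the following lists were chosen with earlier results of these data known, so their shares are no test of a list. The 3 were Neurod6, Satb1 and Lmo4, a LIM-only cofactor patterned between cortical areas. Lmo4 was at 10.60 and 10.72 in piriform cortex, against 11.40 to 12.28 in isocortex (median 11.72), a difference of -1.12 ± 0.15. Without the cingulate area, where Lmo4 was highest, it was -0.93, and against retrosplenial cortex alone -0.79, both under 2-fold. The most highly expressed members that were not called were Camk2a, Mef2c, Nrgn and Zbtb18, in this order. Mef2c differed by -0.39 (limma adjusted p = 0.0643) and Zbtb18 by -0.59 (limma adjusted p = 0.00239). Camk2a was at 13.23 and 13.24 in piriform cortex, against 12.59 to 13.71 in isocortex (median 13.34). Nrgn was at 12.46 and 12.67 in piriform cortex, against 12.27 to 13.13 in isocortex (median 12.55). Camk2a and Nrgn encode abundant postsynaptic proteins of excitatory neurons, and in both the piriform arrays lay within the isocortex range.

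Isocortical layer genes differed in both directions. Of the measured genes, 20% were called for layers 2 to 4 and 20.8% for layers 5 and 6, against 1.59% over all genes. Of 20 measured genes of layers 2 to 4, Wfs1 was called higher and Lamp5, Rspo1 and Pou3f1 lower. Wfs1, an endoplasmic reticulum protein, was at 11.72 and 11.92 in piriform cortex, against 8.84 to 11.43 in isocortex (median 10.02), with a difference of 2.92 from retrosplenial, 1.80 from motor and 0.52 from cingulate cortex. Lamp5, a neuronal lysosome-associated membrane protein of superficial layers, was at 11.72 and 11.87 in piriform cortex, against 12.76 to 13.30 in isocortex (median 13.09), with a control gap of -0.59 in the direction of the call. Pou3f1, a POU-domain factor, was at 8.30 and 8.25 in piriform cortex, against 9.28 to 10.08 in isocortex (median 9.68). The piriform arrays lay below all isocortex arrays for Lamp5 and Pou3f1 and above them all for Wfs1. Of 24 measured genes of layers 5 and 6, Rprm, Bcl11b and Sla were called higher and Fezf2 and Parm1 lower. Bcl11b, a zinc-finger factor of layer 5 and of striatal neurons, was at 11.06 and 11.17 in piriform cortex, against 9.45 to 10.14 in isocortex (median 9.82). Sla, a Src-like adaptor, was at 8.87 and 8.92 in piriform cortex, against 7.07 to 7.38 in isocortex (median 7.20). Parm1, a transmembrane mucin, was at 8.60 and 8.74 in piriform cortex, against 9.70 to 11.37 in isocortex (median 10.15). Each of the 3 was separated between groups, and the differences were 1.35 ± 0.15, 1.69 ± 0.11 and -1.73 ± 0.14. With the mean of its 4 probe sets, Sla had a difference of 0.95, under 2-fold. The medians of the lists were 0.04 for layers 2 to 4 and -0.07 for layers 5 and 6, and Cux2 and Rorb, of superficial layers, were not called (-0.50 ± 0.12 and 0.07 ± 0.25).

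Of 19 measured genes of the ventral and lateral pallium, the piriform cortex and the amygdala, 5 were called higher and 1 lower, with a median difference of 0.05. Called members made up 31.6% of the list, against 1.59% of all genes tested. Besides Lmo3, the 5 were Htr2c, Nr2f2, Zfhx4 and Trps1. Nr2f2, the nuclear receptor COUP-TFII, was at 8.99 and 8.73 in piriform cortex, against 7.13 to 8.22 in isocortex (median 7.59), and its level was 10.39 in the anterior and 10.31 in the posterior amygdala. Trps1, a GATA-type repressor, was at 9.78 and 9.94 in piriform cortex, against 8.29 to 9.21 in isocortex (median 8.66). Zfhx4, a zinc-finger homeobox factor, was at 7.16 and 7.41 in piriform cortex, against 5.10 to 7.14 in isocortex (median 6.43). Nr2f2 and Trps1 were separated between groups by 1.22 ± 0.19 and 1.16 ± 0.17. Zfhx4 rested mainly on the retrosplenial area. Its difference was 1.10 ± 0.28, 0.59 (adjusted p = 0.135) without the retrosplenial area and 0.98 (adjusted p = 0.064) without piriform replicate 2. With the mean of its probe sets, Nr2f2 had a difference of 0.63 and Zfhx4 one of 0.90. Rspo2, a Wnt activator, was called lower at 7.22 and 7.36 in piriform cortex, against 7.93 to 9.57 in isocortex (median 8.96), and was under 2-fold with the mean of its probe sets (-0.87) and against retrosplenial cortex alone (-0.91). Reln, the secreted glycoprotein that guides layering and marks semilunar cells, was at 11.38 and 11.25 in piriform cortex, against 10.05 to 10.89 in isocortex (median 10.30), and Ntng1, a membrane-anchored netrin relative, at 10.54 and 10.50 in piriform cortex, against 9.27 to 10.04 in isocortex (median 9.64). Their differences of 0.96 ± 0.11 and 0.87 ± 0.09 stayed just under 2-fold. With region means as the samples, Htr2c, Nr2f2, Zfhx4, Trps1 and Rspo2 lost their calls and Lmo3 kept its call.

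**Figure D3:**
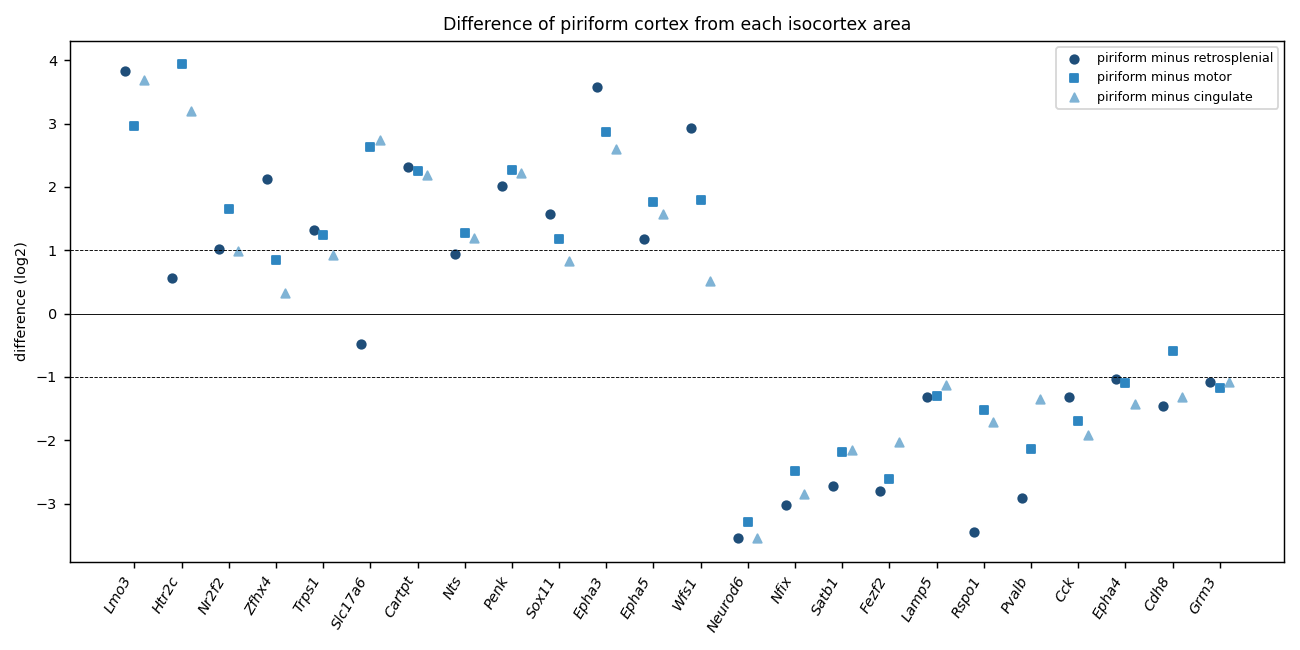
Difference of piriform cortex from each isocortex area alone (log2, vertical axis) for 24 genes of the text, with circles for retrosplenial, squares for motor and triangles for cingulate cortex, and dashed lines at 2-fold. Most genes keep their side for all 3 areas, while Htr2c, Zfhx4, Wfs1 and Rspo1 spread widely and Slc17a6 lies below 0 against retrosplenial cortex.

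Htr2c and Slc17a6 depended on which isocortex area was used. Htr2c, a Gq-coupled serotonin receptor, was at 11.53 and 11.58 in piriform cortex, the highest mean of the 52 regions. Its isocortex values were 10.71 and 11.25 in retrosplenial, 7.30 and 7.94 in motor and 8.21 and 8.48 in cingulate cortex. The difference was 2.57 ± 0.25 from the mean of the areas, but 0.57 (adjusted p = 0.199) from retrosplenial cortex alone. Slc17a6, the vesicular glutamate transporter best known from thalamus and brain stem, was at 10.05 and 10.15 in piriform cortex. It was at 10.46 and 10.69 in retrosplenial, 7.09 and 7.85 in motor and 7.32 and 7.39 in cingulate cortex. Its difference of 1.64 ± 0.20 turned to -0.48 (adjusted p = 0.171) against retrosplenial cortex alone. It was the called member of the 10 claustrum and endopiriform genes.

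Genes of immature neurons were called higher more often than lower. Of 20 measured, 5 were called higher and 1 lower, 10 were higher on adjusted p at any fold, and the median difference was 0.23. Over all genes tested, 0.896% were called higher, 0.698% lower and 12.7% were higher on adjusted p alone. The list was chosen with earlier results of these data known. Sox11, a transcription factor of newborn neurons, was at 9.42 and 9.56 in piriform cortex, against 7.86 to 8.66 in isocortex (median 8.32). Sox4, its close relative, was at 10.50 and 10.45 in piriform cortex, against 8.43 to 9.64 in isocortex (median 8.96), and Marcksl1, an actin-regulating relative of MARCKS, at 12.34 and 12.49 in piriform cortex, against 9.85 to 10.86 in isocortex (median 10.16). Both piriform arrays were above all isocortex arrays for each. Dpysl3, a microtubule-binding protein of growing axons, was at 10.49 and 10.55 in piriform cortex, against 9.01 to 9.61 in isocortex (median 9.35). Cd24a, a surface glycoprotein of differentiating neurons, was at 8.19 and 8.17 in piriform cortex, against 5.71 to 7.32 in isocortex (median 6.80). Nrep, a protein of regenerating neurons, was called lower at 10.20 and 10.30 in piriform cortex, against 11.02 to 12.85 in isocortex (median 11.65). The differences were 1.19 ± 0.18 for Sox11, 1.40 ± 0.19 for Sox4, 2.14 ± 0.13 for Marcksl1 and -1.56 ± 0.13 for Nrep. Marcksl1 had its highest level of the survey in piriform cortex, and its 4 probe sets ran from 1.60 to 2.42. Sox4 and Cd24a had control gaps of 0.91 and 1.14 in the direction of the call, whose part was not tested. Sox4 and Dpysl3 were under 2-fold with the mean of their probe sets (0.73 and 0.50), and Cd24a against retrosplenial cortex alone (0.89). Sox11, Sox4, Dpysl3, Cd24a, Marcksl1 and Nrep all lost their calls when region means were the samples. Dcx, which encodes doublecortin, was at 9.38 and 9.51 in piriform cortex, against 8.75 to 9.19 in isocortex (median 8.97), a difference of 0.45 ± 0.10 (adjusted p = 0.000464) that was under 2-fold although the groups did not overlap.

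Neuropeptide genes were called in both directions. Of 31 measured, 5 were called higher and 1 lower, and the median was -0.03. The called share was 19.4%, against 1.59% over all genes. Cartpt, the precursor of the feeding and reward peptide CART whose upstream bases are given above, was at 9.77 and 9.68 in piriform cortex, against 7.24 to 7.84 in isocortex (median 7.46). Penk, the enkephalin precursor, was at 11.46 and 11.15 in piriform cortex, against 8.90 to 9.47 in isocortex (median 9.11). Cck, the cholecystokinin precursor of cortical excitatory cells and interneurons, was at 10.48 and 10.62 in piriform cortex, against 11.73 to 12.69 in isocortex (median 12.24). Cartpt and Penk were separated upward and Cck downward, by 2.25 ± 0.17, 2.17 ± 0.22 and -1.64 ± 0.24. Nts, the neurotensin precursor, was at 8.16 and 7.78 in piriform cortex, against 6.66 to 7.08 in isocortex (median 6.81). Chgb, a granin of secretory granules, was at 13.45 and 13.63 in piriform cortex, against 12.23 to 12.89 in isocortex (median 12.42). Igf1, an insulin-like growth factor, was at 9.22 and 9.25 in piriform cortex, against 7.97 to 8.46 in isocortex (median 8.19). All 3 lay close to the 2-fold line, with differences of 1.13, 1.03 and 1.04. Nts was at 0.94 without piriform replicate 1. Chgb was at 0.94 without piriform replicate 2 and at 0.72 against retrosplenial cortex alone. Igf1 was at 0.996 without cingulate replicate 1 and at 0.71 with the mean of its probe sets. Chgb had a control gap of 0.68.

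Penk, Drd1 and Ppp1r1b are also genes of striatal medium spiny neurons, and 3 of the 14 measured genes of that list were called higher, with a median difference of 0.53 against 0.01 over all genes. Called in either direction were 28.6% of the list and 1.59% of all genes, and 12.7% of all genes were higher on adjusted p alone. Drd1, the D1 dopamine receptor, was at 8.89 and 8.43 in piriform cortex, against 6.50 to 7.27 in isocortex (median 6.77), and at 11.72 in the olfactory tubercle. Ppp1r1b, the dopamine-regulated phosphatase inhibitor DARPP-32, was at 10.66 and 10.46 in piriform cortex, against 8.68 to 9.40 in isocortex (median 8.98), and at 13.30 in the lateral caudate putamen. Piriform replicate 1 was above replicate 2 for Drd1, Ppp1r1b, Penk, Tac1 and Pde10a. Of the list, 9 genes were higher at any fold, among them Drd2 at 8.16 and 7.63 in piriform cortex, against 7.22 to 7.77 in isocortex (median 7.38), and the part of neighbouring striatal tissue in these values was not tested. Foxp1, a forkhead factor of striatal and isocortical neurons, was the member called lower, at 9.34 and 9.29 in piriform cortex, against 10.07 to 11.13 in isocortex (median 10.81), and differed by -0.85 from retrosplenial cortex alone.

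**Figure D4:**
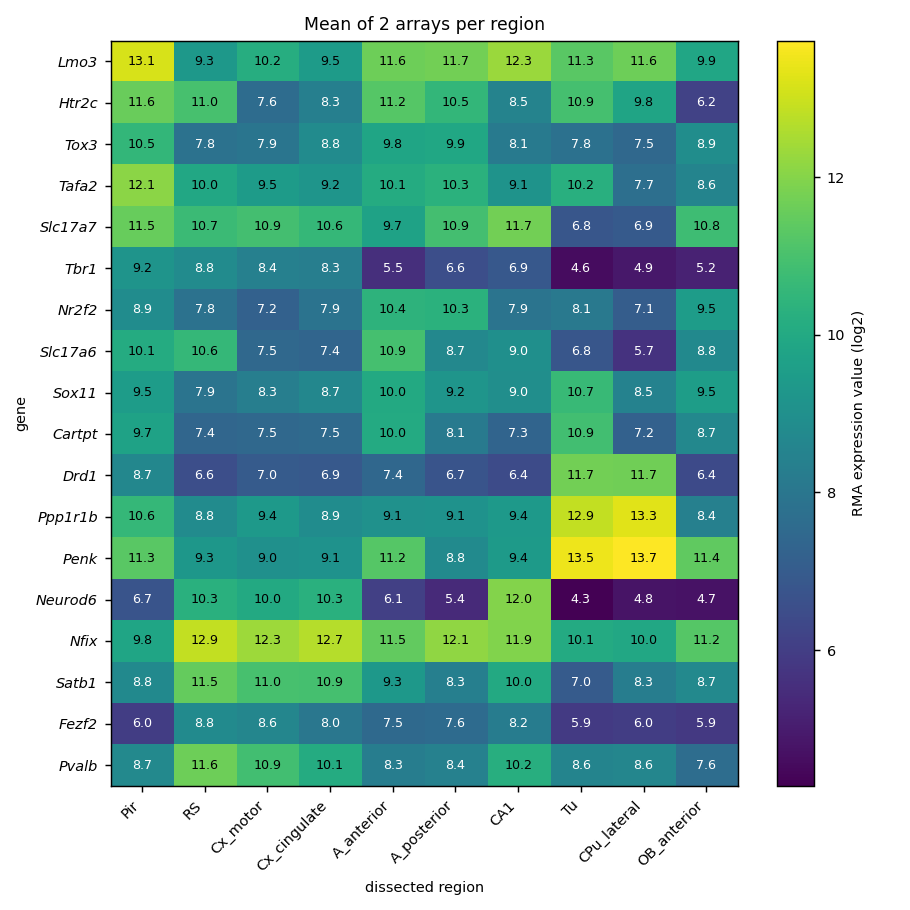
Mean of 2 arrays (RMA, log2, colour and printed value) of 18 genes in piriform cortex, the 3 isocortex areas, anterior and posterior amygdala, hippocampal CA1, olfactory tubercle, lateral caudate putamen and anterior olfactory bulb. Lmo3, Htr2c, Tox3 and Tafa2 are highest in the piriform column, Drd1, Ppp1r1b and Penk are highest in tubercle and caudate putamen, and Neurod6 is low in piriform cortex and amygdala but high in isocortex and CA1.

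Interneuron lists differed in their called share, at 0% for GABA genes and 17.4% for peptides and calcium-binding proteins, against 1.59% over all genes. Of 15 measured genes of GABA synthesis, release and interneuron factors, 0 were called by limma in either direction (3 were lower on adjusted p at any fold), and Gad1, which makes most GABA, was at 11.61 and 11.63 in piriform cortex, against 11.78 to 12.45 in isocortex (median 11.94). Pvalb, the calcium buffer of fast-spiking interneurons, was at 8.82 and 8.65 in piriform cortex, against 9.94 to 11.75 in isocortex (median 10.88). Its difference was -2.13 ± 0.16, with retrosplenial cortex highest and cingulate lowest among the areas, and its control gap was -0.54 in the direction of the call. Pvalb lost its call when region means were the samples, and so did Hapln4, Cck and Cryab, named below. Hapln4, a link protein of the perineuronal nets that surround fast-spiking cells, was at 8.69 and 8.76 in piriform cortex, against 9.65 to 10.68 in isocortex (median 10.16), a difference of -1.44 ± 0.11. Among 23 genes of interneuron peptides and calcium-binding proteins, Penk was called higher and Pvalb, Cck and Cryab lower, with a median of -0.07. Cryab, a small heat-shock protein, differed by -1.01, by -0.78 without piriform replicate 2 and by -0.50 with the mean of its probe sets. Sst and Vip, peptides of 2 other interneuron classes, had differences of -0.68 ± 0.24 and -0.92 ± 0.26 and were under 2-fold. Among 13 perineuronal net and matrix genes, Crtac1, a secreted cartilage protein, was the gene called higher, at 10.45 and 10.46 in piriform cortex, against 8.70 to 9.07 in isocortex (median 8.80), and this was its highest level of the survey, though its 4 probe sets ran from 0.02 to 2.11.

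Called shares of the receptor lists were 14.3% for monoamine, 14.3% for glutamate and 6.06% for neuropeptide and cannabinoid receptors, against 1.59% over all genes. Of 21 measured monoamine receptors, Htr2c and Drd1 were called higher and Hrh1, the H1 histamine receptor, lower, and of 33 neuropeptide and cannabinoid receptors Npy2r was called higher and Sstr1, a somatostatin receptor, lower. Hrh1 was at 7.44 and 7.66 in piriform cortex, against 8.11 to 9.18 in isocortex (median 8.53), and its difference of -1.04 was -0.93 without piriform replicate 1, -0.78 without the cingulate area and -0.57 against retrosplenial cortex alone. Npy2r, a neuropeptide Y receptor, was at 5.94 and 6.06 in piriform cortex, against 4.71 to 5.23 in isocortex (median 4.98), below the median of all values (7.39), and its difference of 1.03 was 0.97 without piriform replicate 2 and 0.94 without the motor area. Sstr1 was at 6.79 and 6.83 in piriform cortex, against 7.57 to 8.93 in isocortex (median 8.19). Its difference was -1.35 ± 0.19, and -0.80 against retrosplenial cortex alone. Of 21 glutamate receptors, Grik1 was called higher and Grik3 and Grm3 lower. Grik1, a kainate receptor subunit, was at 7.82 and 7.93 in piriform cortex, against 6.41 to 7.49 in isocortex (median 6.70), and its difference of 1.00 lay on the 2-fold line. It was 0.95 without piriform replicate 2, 0.80 without the motor area and 0.64 with the mean of its probe sets. Against retrosplenial cortex alone it was 0.42 (limma adjusted p = 0.069). Grm3, a Gi-coupled metabotropic receptor, was at 9.82 and 9.83 in piriform cortex, against 10.75 to 11.08 in isocortex (median 11.00), a difference of -1.11 ± 0.13 with a control gap of -1.20. The 12 cholinergic and 10 GABA receptor genes held 0 called genes by limma, and on adjusted p alone 4 of the cholinergic and 3 of the GABA receptor genes passed. Over all genes, 12.7% were higher and 14.0% lower on adjusted p alone. Oprm1, the mu opioid receptor, had its highest level of the 52 regions in piriform cortex, at 8.45 and 8.63 in piriform cortex, against 8.03 to 8.19 in isocortex (median 8.10), although its difference was 0.44 ± 0.08.

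Ion channel genes differed in both directions. The called share was 11.1% for potassium and HCN channels and 18.5% for sodium and calcium channels, against 1.59% over all genes. Of 45 potassium and HCN channel genes, Kcna5 and Kcnk2 were called higher and Kcnab1, Kcnab3 and Kcnn2 lower, with a median of -0.07. Kcnk2, a background potassium channel, was at 11.00 and 10.96 in piriform cortex, against 9.32 to 9.99 in isocortex (median 9.73). Kcna5, a delayed rectifier subunit, was at 7.30 and 6.95 in piriform cortex, against 5.60 to 5.95 in isocortex (median 5.81). Kcnn2, a calcium-activated channel of the afterhyperpolarisation, was at 7.91 and 7.80 in piriform cortex, against 9.03 to 9.46 in isocortex (median 9.07). All 3 were separated between groups. The beta subunits Kcnab1 and Kcnab3 differed by -1.18 ± 0.13 and -1.33 ± 0.13, were highest in retrosplenial cortex among the areas, and were at -0.92 and -0.97 without it. Kcnab1 had a control gap of -0.81. Of 27 sodium and calcium channel genes, Scn3a, Scn3b and Cacng5 were called higher and Cacna1g and Cacna2d3 lower. Scn3a, a sodium channel best known from embryonic brain, was at 9.28 and 9.48 in piriform cortex, against 7.04 to 8.59 in isocortex (median 7.78). Cacng5, an AMPA receptor auxiliary protein of the calcium channel gamma family, was at 8.96 and 8.92 in piriform cortex, against 6.75 to 7.54 in isocortex (median 7.01). Cacna2d3, an auxiliary calcium channel subunit, was at 9.44 and 9.35 in piriform cortex, against 10.38 to 10.86 in isocortex (median 10.49). The groups did not overlap in any of these. With the mean of their probe sets Scn3a was at 0.84 and Cacng5 at 0.91. Scn3b, a sodium channel beta subunit, and Cacna1g, a T-type calcium channel, differed by 1.03 and -1.01, and by 0.95 and -0.83 without piriform replicate 2. Scn3b was at 0.76 without the retrosplenial area, and Cacna1g at -0.51 against that area alone.

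Axon guidance genes were the largest list, with 59 measured, 7 called higher and 5 lower, and a median of 0.04. The called share was 20.3%, against 1.59% over all genes. Among the Eph receptors, Epha3, Epha5 and Epha6 were called higher and Epha4 and Ephb6 lower. Epha5 was at 11.17 and 11.43 in piriform cortex, against 9.24 to 10.14 in isocortex (median 9.86). Epha6 was at 8.78 and 8.98 in piriform cortex, against 6.97 to 7.27 in isocortex (median 7.16). Epha4, which binds both ephrin classes, was at 8.82 and 9.06 in piriform cortex, against 9.91 to 10.40 in isocortex (median 10.05). Each was separated between groups, by 1.5 ± 0.14, 1.74 ± 0.12 and -1.19 ± 0.13. The ligand Efna5 was called lower, at -1.09 ± 0.12, on the brighter of 2 probe sets, and the other gave 0.09, with a mean of -0.50. Among semaphorins and their receptors, Sema6a, Plxnd1 and Nrp2 were called higher and Sema3e and Sema7a lower. Plxnd1, the plexin that binds Sema3e, was at 10.02 and 10.24 in piriform cortex, against 8.42 to 9.03 in isocortex (median 8.74), its highest level of the 52 regions. Sema3e was at 7.17 and 7.04 in piriform cortex, against 7.59 to 9.30 in isocortex (median 8.34). Nrp2, a co-receptor of secreted semaphorins, was at 10.03 and 10.01 in piriform cortex, against 8.58 to 9.14 in isocortex (median 8.81). The difference was 1.40 ± 0.09 for the receptor Plxnd1 and -1.24 ± 0.19 for its ligand Sema3e, with Sema3e at -0.94 without the motor area. Unc5d, a netrin receptor family member of superficial cortical neurons, was at 10.48 and 10.52 in piriform cortex, against 8.28 to 8.89 in isocortex (median 8.62). Sema6a and Sema7a differed by 1.28 ± 0.11 and -1.35 ± 0.11, and Sema6a and Sema3e were under 2-fold with the mean of their probe sets (0.47 and -0.60).

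Among 26 cadherins and protocadherins, Cdh22 was called higher and Cdh8 and Cdh11 lower. These made up 11.5% of the list, against 1.59% over all genes. Cdh22 was at 10.03 and 10.05 in piriform cortex, against 8.52 to 9.26 in isocortex (median 8.98), its highest level of the survey, and its difference of 1.09 ± 0.09 was 0.94 without the retrosplenial area. Cdh11 was at 8.95 and 8.98 in piriform cortex, against 9.78 to 10.40 in isocortex (median 10.13), with a difference of -1.15 ± 0.16, or -0.89 from retrosplenial cortex alone. Cdh8 was at 8.32 and 8.28 in piriform cortex, against 8.57 to 10.23 in isocortex (median 9.33), with a control gap of -0.83. The isocortex arrays of Cdh8 were widely spread, and its difference of -1.12 ± 0.19 was -0.92 without cingulate replicate 1 and -0.59 with the mean of its probe sets. Of 20 immediate early genes, Jun was called higher and Ier5 lower, or 10% of the list. Jun, part of the AP-1 factor, was at 10.21 and 10.23 in piriform cortex, against 8.52 to 8.86 in isocortex (median 8.71), with both probe sets higher (1.53 and 1.58). Ier5 was at 9.51 and 9.65 in piriform cortex, against 10.37 to 11.16 in isocortex (median 10.81), with a difference of -1.18 ± 0.12, or -0.93 with the mean of its probe sets. Fos was at 9.74 and 10.25 in piriform cortex, against 9.42 to 10.15 in isocortex (median 9.66), and its groups overlapped.

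Gjb6 was the called gene of the glial, vessel, meningeal and ependymal lists, and 1.59% of all genes tested were called. On adjusted p alone, 14.0% of all genes were lower and 12.7% higher. The medians of 5 of these lists lay below 0. Of 12 astrocyte genes, Gjb6, the gap junction protein connexin 30, was called lower, 7 were lower on adjusted p at any fold and the median was -0.39. Gjb6 was at 9.29 and 8.93 in piriform cortex, against 9.73 to 10.51 in isocortex (median 10.31), and its difference of -1.06 ± 0.14 was -0.87 without piriform replicate 2. Aldh1l1, a folate enzyme of astrocytes, was at 8.99 and 8.97 in piriform cortex, against 9.34 to 9.86 in isocortex (median 9.60). Cldn5, the tight junction protein of brain endothelium, was at 9.24 and 8.83 in piriform cortex, against 9.35 to 10.15 in isocortex (median 9.52). Aldh1l1 and Cldn5 were below all isocortex arrays but under 2-fold. The medians were -0.34 over 12 microglial genes and -0.34 over 11 endothelial and pericyte genes, with 7 and 5 lower at any fold. By limma 0 genes of either list were called at 2-fold. Of 12 myelin genes (median -0.10), 0 were called and 2 were lower at any fold, and Mbp, a main myelin protein, was at 13.60 and 13.50 in piriform cortex, against 12.52 to 13.80 in isocortex (median 13.72). Of the 11 ependymal and choroid plexus genes, Ttr, the choroid plexus thyroid hormone carrier, had a difference of -1.41 ± 0.57 (adjusted p = 0.0564), and its isocortex arrays spread from 8.99 to 12.92. It was the gene past 2-fold lower that missed the adjusted p. By limma 0 genes were called of 7 oligodendrocyte precursor genes (median -0.03), 8 genes of basal forebrain cholinergic neurons and 10 of meninges and fibroblasts, with 2, 1 and 2 passing on adjusted p at any fold.

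**Figure D5:**
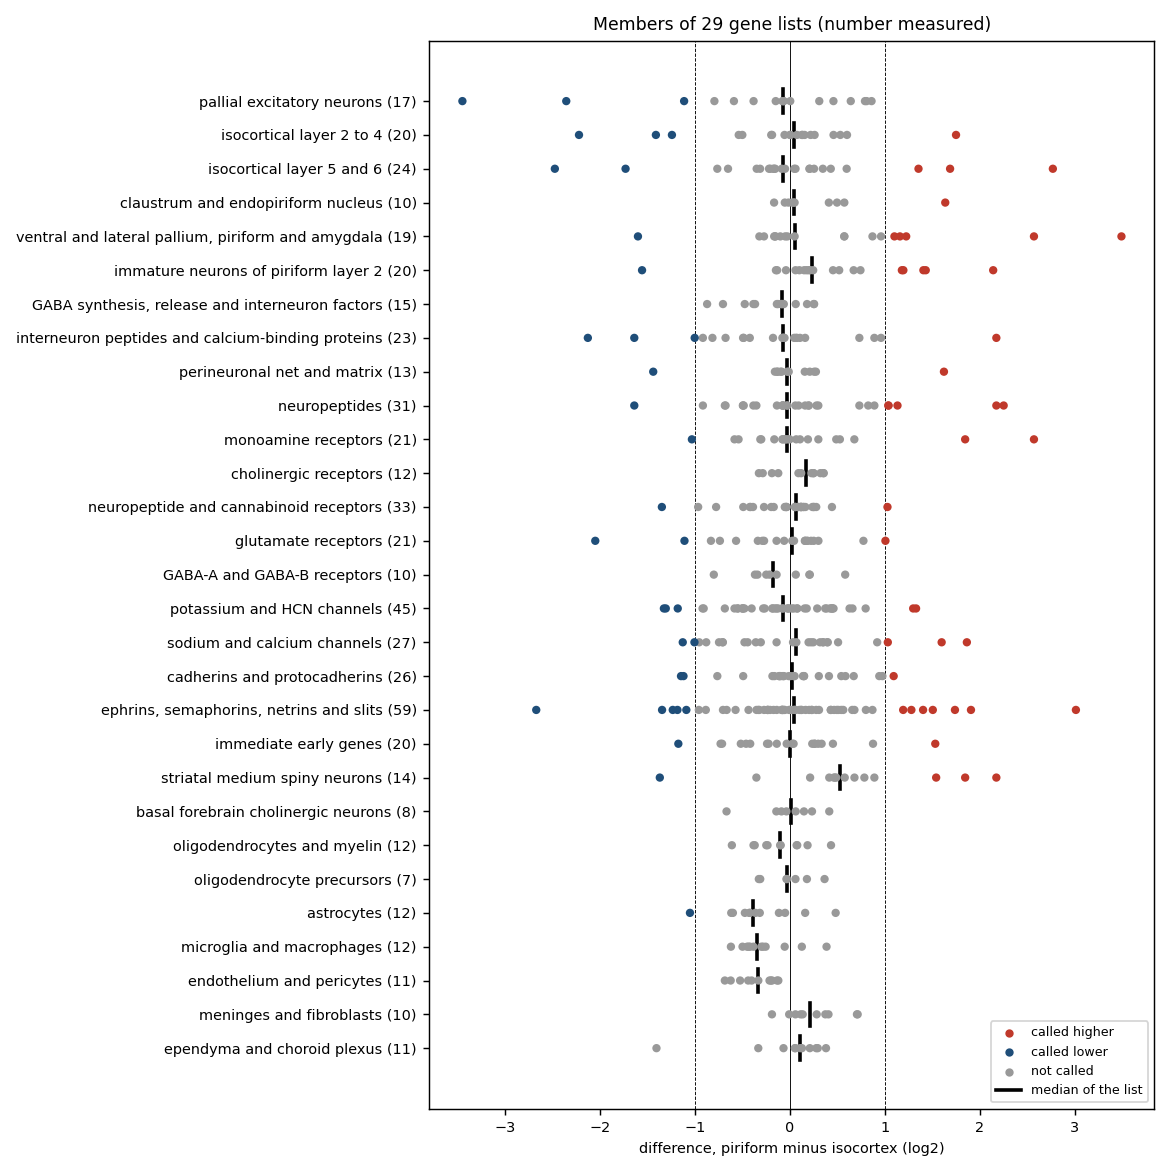
Difference of each measured member (points, log2, horizontal axis) of 29 gene lists (vertical axis, with the number measured), in red where called higher, blue where called lower and grey where not called. Black ticks are list medians and dashed lines mark 2-fold. The striatal list has the highest median (0.53) and the astrocyte list the lowest (-0.39), and most points of every list lie between the dashed lines.

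Piriform cortex also had a set of genes at their highest level in the survey. For 90 of the 18193 genes tested both piriform arrays were above every other array, and 21 of these were called higher than isocortex. The same count was not made for other regions, so it is not a trait of piriform cortex alone. Lmo3, Tafa2 and Tox3 were in this set. Others differed less from isocortex, as for Pid1, an inhibitor of insulin signalling, at 11.14 and 11.22 in piriform cortex, against 9.33 to 9.75 in isocortex (median 9.59). Rasgef1c, a Ras exchange factor, was at 10.26 and 10.44 in piriform cortex, against 8.27 to 9.61 in isocortex (median 9.40). Fbxo34, an F-box protein, was at 10.95 and 11.20 in piriform cortex, against 9.91 to 10.21 in isocortex (median 10.02). All 3 were separated from isocortex, by 1.63 ± 0.11, 1.21 ± 0.11 and 1.01 ± 0.07, and Fbxo34 was at 0.89 without piriform replicate 2 and Rasgef1c at 0.87 without the retrosplenial area. The 3 probe sets of Pid1 ran from 0.12 to 1.63, and their mean gave 0.68. Klhl23, Ccne1 and Lingo2, at differences of 0.90, 0.75 and 0.75, were in the set without reaching 2-fold. Of the 163 genes called higher, 29 had their highest mean of the 52 regions in piriform cortex and 98 ranked among its first 5 regions there. Of the 127 called lower, 27 had piriform cortex among the last 5 regions and 24 had their highest mean in an isocortex area. The calls select on the piriform level, so these ranks are partly set by the choice of genes. Their shares over all genes were not counted. The lower group's mean was under the median of all values (7.39) for 46 genes called higher and 31 called lower, and arrays are known to understate folds at low levels.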

How the data were processed

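RNA of piriform cortex (2 arrays) and of retrosplenial, motor and cingulate cortex (6 arrays) was prepared with Trizol and given a one-cycle biotin label, per the labels' protocols. The deposited log2 values were made by the authors with RMA, per the submitters' processing notes, with no version stated, and were used as deposited. The platform annotation paired 34945 of 45101 probe sets with exactly 1 gene symbol, and the probe set with the highest mean stood for each of 18193 genes. Other probe sets of a gene are given where they disagree.

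One mean per region was fitted to all arrays in limma 3.58.1 (R 4.3.3), which left 52 residual degrees of freedom, with 7.87 prior ones. Piriform cortex minus the mean of the 3 isocortex means was tested two-sided, with Benjamini-Hochberg adjustment over all genes. Genes were called at an adjusted p under 0.05 and at least 2-fold. Named genes were the 15 largest called differences in each direction (higher group no dimmer than 7.39, the median value of the table, and groups not overlapping), every called member of 29 lists, up to 4 highly expressed members per list that were not called, and up to 12 genes highest in piriform cortex. Further list members that were not called, including Slc17a7, Tbr1, Emx1, Reln, Dcx, Gad1, Oprm1 and Ttr, were named after their values were seen. The members and lists were chosen with earlier results of these data known. Of 584 different list genes, 533 were measured.

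On simulated data with the same design and 18193 genes, limma recovered 50 of 50 genes at each planted difference of 1.5, -1.5, 2 and -2 (log2), with 0 false calls among 17993. The planted differences were all past 2-fold, and the simulated noise was normal and independent, with no shift between the control sets. The run therefore checks the computation, and it cannot say how the calls fare under such a shift. Alternatives were quantile normalization, centred arrays, the brighter genes alone, averaged probe sets, other thresholds, variance models and sets of arrays.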

Additional observations from a re-analysis of the deposited data

Results flagged for a closer look

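Cdhr1 in motor cortex replicate 2 lay apart from the other isocortex arrays, at 6.40 against 6.60 to 6.63, on the low side. The gap was 0.89 of the range of the 6 arrays, past Dixon's critical value for a group of 6. This was 1 of 30 genes checked, and chance flags about 1 group in 20. The Cdhr1 level was 9.21 and 9.91 in piriform cortex, so the array lay further from piriform cortex than the others.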

How the results depend on the processing

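The counts of genes called higher and lower were 163 and 127. Without a fold threshold they were 2316 and 2545, with limma treat against 2-fold 58 and 33, and with the 4 region means as samples (2 residual degrees of freedom) 52 and 36, where fewer samples entered by construction. Averaging a gene's probe sets gave 116 and 95. Leaving out 1 array gave 152 to 172 higher and 117 to 139 lower, and at least 147 and 115 of the called genes were kept. Array centring gave 148 and 131, quantile normalization 179 and 120, and the filter on dim genes 153 and 124. The fit of the 8 arrays alone, another variance model and array weights each gave 163 higher and 127 or 128 lower. Without retrosplenial, motor or cingulate cortex the counts were 156 and 130, 162 and 129, and 188 and 141. With the replicate block they were 163 and 127. Same-numbered arrays deviated together for motor and cingulate cortex (r = 0.52) but not for other pairs (r = -0.05 to 0.11), so the numbers were not treated as pairs.

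After the data were seen, genes with a control gap of at least 0.5 in the direction of the call were left out (143 and 107), and retrosplenial cortex alone was used as the reference (232 and 183). Of 96 named called genes over 24 alternatives, 1 reversed: Slc17a6, at -0.48 (adjusted p = 0.171, limma) against retrosplenial cortex alone. Calls were lost for 59 of the 96 with region means, 49 with treat, 22 with averaged probe sets, 16 against retrosplenial cortex alone, 10 each without piriform replicate 2 and without the retrosplenial area, and 0 to 8 under each of the others. The cause was not tested. The 2 arrays per area limit every SE.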

Other observations

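Close relatives differed in opposite directions in several families that were on no list. These genes were chosen after their values were seen. Sulf1, a sulfatase that edits heparan sulfate, was at 8.21 and 8.52 in piriform cortex, against 6.75 to 7.90 in isocortex (median 6.98). Its relative Sulf2 was at 9.82 and 9.73 in piriform cortex, against 11.23 to 11.54 in isocortex (median 11.46). The differences of 1.21 ± 0.15 and -1.64 ± 0.10 were both called. The high-mobility-group regulator Tox differed by -1.26 ± 0.12, against 2.33 ± 0.13 for Tox3. Among the copines, which bind membranes in response to calcium, Cpne4 and Cpne6 were called higher (1.57 and 1.11) and Cpne9 lower (-1.87 ± 0.14). Tmem178b and Tmem178 differed by 1.01 and -1.32, and Tmem178b was at 0.84, under 2-fold, without piriform replicate 2.

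Some relatives differed in the same direction. The contactins Cntn5 and Cntn6, neuronal adhesion molecules, differed by 1.63 ± 0.13 and 1.66 ± 0.14, and Cntnap5a, a contactin-associated protein, by 1.77 ± 0.15. Unc13c and Unc13b, which prime synaptic vesicles, differed by 2.01 ± 0.16 and 1.18 ± 0.13. The glycine receptor subunits Glra2 and Glra3 differed by 1.16 ± 0.23 and 1.45 ± 0.23. All were called higher by limma.

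Of 10092 probe sets without a single gene symbol, 37 were called higher and 58 lower, 0.941% together, against 1.40% of all probe sets.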
